A study of Mus musculus with 16 samples.

Results

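Integrins are paired alpha and beta chains by which a T cell holds on to vessel walls, matrix and other cells. The 36 genes described here are integrin chains, their ligands on other cells, selectin ligands and the enzymes that build them, receptors of cell contact and 2 intracellular linkers. They were chosen by name, with earlier results of these data known. Each was read from its brightest named probe, by the mean of the 16 arrays. Of the 36 genes, 35 had a named probe, out of 20660 genes with one on the array, and 34 entered the test of 14674 genes. Itgae had no probe named through the tables used here and is given no value. The only probe of Itgb8 stayed dim, well above background on none of the 16 arrays, and was not tested. Of the 34 genes tested, 26 were well above background on all 16 arrays.

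The samples are splenic CD4+ T cells of mice, enriched with an isolation kit, then sorted, and hybridised on 1-colour Agilent whole-genome arrays. All mice were males of 8 to 10 weeks and all carried CD4-Cre, a Cre recombinase switched on by Cd4 gene elements while T cells develop, so that other T cells of the same mice also lose the floxed gene. The knockout groups carried CD4-Cre with NEMOfl/fl (label CD4xNEMO, NEMO knockout) or with IKK2fl/fl (label CD4xIKK2, IKK2 knockout), and the controls carried CD4-Cre alone (label CD4cre, Cre control). NEMO is the regulatory subunit and IKK2 a catalytic subunit of the kinase that switches on canonical NF-kB. Nephritis was induced by 2.5 mg nephrotoxic sheep serum per g body weight into the peritoneum, and spleens were taken on day 10 (NTN). The mice of the other groups had no nephritis. There were 2 NEMO knockout arrays with nephritis and 2 without, 3 IKK2 knockout arrays with and 3 without, and 3 Cre control arrays with and 3 without. Deletion was checked by PCR, per the labels.

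The arrays lay on 3 slides. Slide 3 held all 4 NEMO knockout arrays and no others, so for every comparison of the NEMO knockout with another genotype the slide and the genotype cannot be told apart. Slide 1 held all nephritic IKK2 knockout and Cre control arrays and 2 non-nephritic IKK2 knockout arrays, and slide 2 held the non-nephritic Cre controls and 1 non-nephritic IKK2 knockout array. Levels are log2 intensities relative to the 75th percentile of the same array, so that 0 is that percentile. Levels of different genes are not compared, because each probe has its own brightness. Differences are log2 values with the standard error (SE) of a limma model over all genes, and a gene was called at a Benjamini-Hochberg adjusted p under 0.05. The first principal component, 49.1% of the variance, separated the 4 NEMO knockout arrays, at 71.8 to 90.2, from the others, at -51.9 to 7.88. Correlations within groups were 0.971 to 0.993. The labels do not state whether arrays of a group come from different mice. The p-values therefore reflect scatter among these arrays, and part or all of it may be technical. In bulk RNA, fewer cells of a type and less RNA per cell cannot be told apart.

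The sorted cells had T cell genes on every array: the mean level of 15 T cell identity genes was 5.63 to 5.67 on nephritic NEMO knockout arrays and 5.84 to 6.0 on nephritic Cre control arrays, with the other groups between 5.71 and 5.96. Of these 15 genes, 7 were called lower in the NEMO knockout than in Cre control with nephritis, and 6 lower and 1 higher without. Genes of other cells were measured too. Of 10 markers of CD8 and NK cells, 6 were called higher and 2 lower in the NEMO knockout with nephritis, 7 higher and 2 lower without, and 5 higher and 1 lower in the non-nephritic IKK2 knockout. Of 6 plasma cell markers, 2 were higher in the NEMO knockout with nephritis and 5 without, and of 9 neutrophil markers 5 were higher with nephritis and 1 lower without. Of 10 platelet markers 3 were higher and 1 lower in the nephritic NEMO knockout. Among all genes, 48.4% and 43.0% were called in the NEMO knockout with and without nephritis, and 14.6% in the non-nephritic IKK2 knockout. Genes of B cells, myeloid cells and dendritic cells are given with Itgax. The part of these cells in the NEMO knockout differences was not tested. Whether the probes of the targeted genes lie within the deleted parts is not known here, so their levels check nothing about the deletion. Ikbkb, the gene of IKK2, differed between IKK2 knockout and Cre control by -0.34 (SE 0.11, adjusted p = 0.133) with nephritis and -0.24 (SE 0.11, adjusted p = 0.162) without. Ikbkg, the gene of NEMO, differed between NEMO knockout and Cre control by -0.34 (SE 0.11, adjusted p = 0.0195) with nephritis and -0.13 (SE 0.11, adjusted p = 0.337) without. Each gene also differed in the other knockout. Ikbkb was lower in the NEMO knockout by -0.48 (SE 0.12, adjusted p = 0.00653) with nephritis and -0.35 (SE 0.12, adjusted p = 0.0371) without. In the IKK2 knockout Ikbkg was higher without nephritis, by 0.68 (SE 0.096, adjusted p = 0.00153), and not called with nephritis (-0.10).

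Adhesion of a T cell to a vessel runs in steps. Selectins on endothelium or platelets catch sugar-bearing ligands on the cell and let it roll, chemokines then switch integrins to a binding state, and integrins hold the cell to ligands of the immunoglobulin family such as ICAM-1 and VCAM-1. Selectin ligands have to be built: Selplg encodes the protein backbone PSGL-1, and the enzymes encoded by Gcnt1 and Fut7 add the branch and the fucose without which selectins do not bind. Effector and memory T cells carry more of these ligands, of CD44 and of several integrins than naive T cells do. Canonical NF-kB is a known driver of Icam1 and Vcam1 in endothelium and other cells.

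Promoter sequences are shown for 4 genes. On the probes used, Gcnt1, Fut7 and Itgb1 were lower in nephritic IKK2 knockout arrays and higher in NEMO knockout arrays, and Icam1 was higher in NEMO knockout arrays. Each is the 250 bases before the transcription start in RefSeq's table of assembly GRCm38.p6, 5′ to 3′ along the gene. Of the members, 23 matched that table with 27 promoters. Vcam1 was not among them, so its promoter was not searched. Capitals mark matches to 4 motifs searched on both strands: the kappa-B letters GGAATTTCC (or GGAAATTCC), the T-box letters AGGTGTGA, the RUNX letters TGTGGT and the ETS letters GGAAGT.
Gcnt1 (chr19:17356668-17356917, reverse strand): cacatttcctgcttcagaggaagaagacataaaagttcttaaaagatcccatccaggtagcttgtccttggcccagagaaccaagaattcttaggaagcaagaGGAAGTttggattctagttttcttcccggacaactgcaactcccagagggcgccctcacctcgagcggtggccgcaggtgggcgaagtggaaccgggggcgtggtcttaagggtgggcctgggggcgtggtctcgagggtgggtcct
Fut7 (chr2:25422992-25423241, forward strand): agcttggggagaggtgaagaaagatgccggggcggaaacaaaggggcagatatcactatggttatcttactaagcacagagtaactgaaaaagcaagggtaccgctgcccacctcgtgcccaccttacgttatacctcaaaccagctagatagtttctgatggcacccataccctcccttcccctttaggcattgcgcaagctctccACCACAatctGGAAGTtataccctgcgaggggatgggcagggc
Itgb1 (chr8:128685404-128685653, forward strand): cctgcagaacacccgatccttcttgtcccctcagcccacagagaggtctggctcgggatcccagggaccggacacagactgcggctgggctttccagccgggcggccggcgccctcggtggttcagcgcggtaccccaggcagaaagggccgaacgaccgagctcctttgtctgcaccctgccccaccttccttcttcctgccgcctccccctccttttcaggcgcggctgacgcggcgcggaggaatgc
Icam1 (chr9:21015690-21015939, forward strand): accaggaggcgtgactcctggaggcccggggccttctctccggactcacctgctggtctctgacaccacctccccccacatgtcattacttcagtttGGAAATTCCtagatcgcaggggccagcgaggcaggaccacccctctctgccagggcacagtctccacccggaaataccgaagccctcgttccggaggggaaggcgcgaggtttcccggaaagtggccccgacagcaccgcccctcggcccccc
The kappa-B letters occurred in 0.286% of 32851 promoters of the same length and, among the member promoters, in that of Icam1, 153 bases before the start. The RUNX letters occurred in 14% and the ETS letters in 19.7% of all promoters. Both stand in the Fut7 promoter, 43 and 33 bases before the start, and the Gcnt1 promoter shown holds the ETS letters 147 bases before the start. None of the letters searched stands in the Itgb1 window. The T-box letters, in 1.12% of all promoters, were found among members in the Selp promoter. The table lists 2 starts for Fut7 and 3 for Gcnt1. The other Fut7 start shows none of the letters, and of the other Gcnt1 starts 1 holds the ETS letters. A match of letters is a description, not a site.

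In NEMO knockout cells, most of the adhesion genes stood higher than in Cre control cells. With nephritis, 25 of 34 members were called, against 48.4% of all genes tested. Of these members 19 were higher and 6 lower, against 18.8% and 29.6% of all genes tested. Without nephritis, 24 members were called, against 43.0% of all genes, 19 higher and 5 lower, against 21.0% and 22.0% of all genes. The median difference of the members was 0.59 with and 0.59 without nephritis, and that of all genes was -0.14 and -0.056. In 23 members the call was made in both conditions, 18 higher and 5 lower. With nephritis the IKK2 knockout had 4 member calls, against 2.58% of all genes. None was higher and 4 were lower, against 0.988% and 1.59% of all genes: Gcnt1, Fut7, Itgb1 and Itgb3. The median of the members there was -0.078, and that of all genes -0.03. Without nephritis the IKK2 knockout had 12 member calls, against 14.6% of all genes. Of these 9 were higher and 3 lower, against 10.0% and 4.53% of all genes, with a median of 0.24 for members and 0.045 for all genes. A single member, Itgb3, was called in both conditions of the IKK2 knockout.

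**Figure D1:**
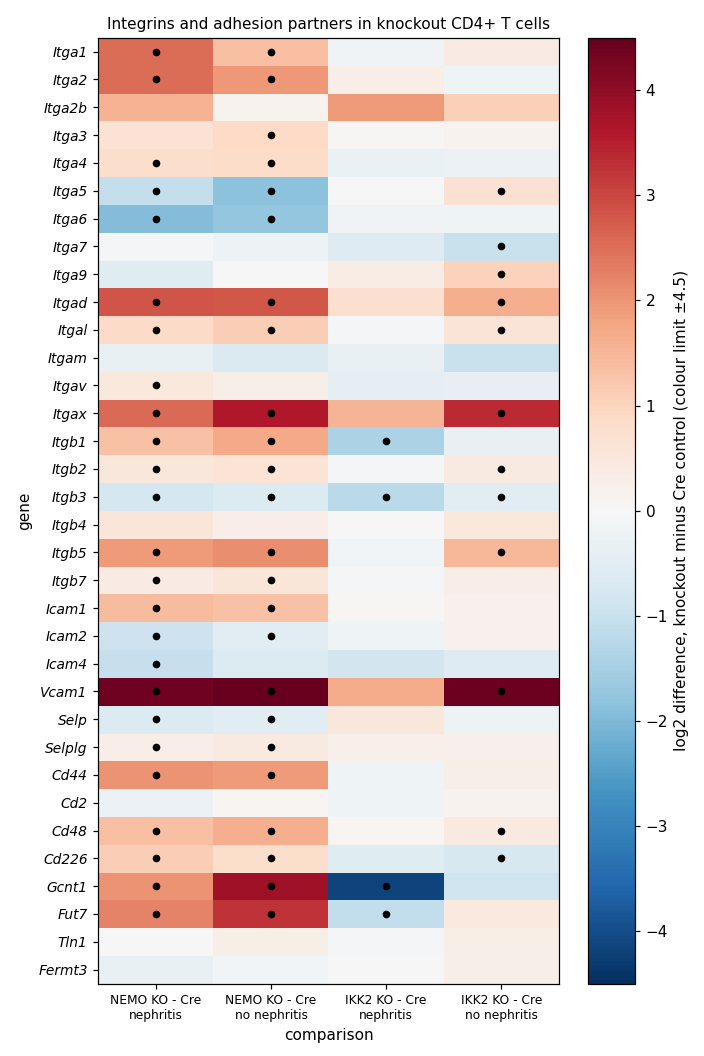
Log2 difference of each of the 34 tested genes (rows) in the NEMO knockout and the IKK2 knockout against Cre control, with and without nephritis (columns), from blue (lower in the knockout) to red (higher), with colours limited at 4.5 either way. Black dots mark calls, which number 25 and 24 in the NEMO knockout columns and 4 and 12 in the IKK2 knockout columns.

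Of the 25 calls in the nephritic NEMO knockout, 17 held when any single array was left out, and 18 of the 24 without nephritis. The others are given here at the fit with the highest adjusted p, as the difference, that p and the array left out. With nephritis these were Itgax 2.51 (0.0699, without nephritic NEMO knockout replicate 2), Vcam1 4.18 (0.0826, without nephritic NEMO knockout replicate 1), Itgav 0.44 (0.113, without nephritic NEMO knockout replicate 1) and Itgb7 0.35 (0.117, without nephritic NEMO knockout replicate 1). Icam4, Selp and Selplg were also lost, at Icam4 -0.98 (0.118, without nephritic NEMO knockout replicate 1), Selp -0.49 (0.0835, without nephritic NEMO knockout replicate 2) and Selplg 0.26 (0.185, without nephritic NEMO knockout replicate 2). Without nephritis they were Itga1 1.26 (0.0780, without non-nephritic NEMO knockout replicate 2), Itga3 0.90 (0.111, without non-nephritic NEMO knockout replicate 1) and Itgb3 -0.55 (0.0689, without non-nephritic NEMO knockout replicate 1). The same held for Selp -0.34 (0.223, without non-nephritic NEMO knockout replicate 1), Selplg 0.37 (0.0753, without non-nephritic NEMO knockout replicate 1) and Cd226 0.78 (0.0587, without non-nephritic NEMO knockout replicate 1). Gcnt1 with nephritis follows with its probes.

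Gcnt1 and Fut7, 2 enzyme genes of selectin ligand synthesis, were higher in the NEMO knockout than in Cre control. On the probes used both were lower in the nephritic IKK2 knockout, but the other Gcnt1 probe did not show this. Gcnt1 encodes the enzyme that starts the core 2 branch on O-linked sugars, on which selectin ligands are built. Gcnt1 read 1.76 and 1.77 on nephritic and 1.70 and 1.77 on non-nephritic NEMO knockout arrays. Gcnt1 stood at -3.84, -5.12 and -4.27 on nephritic and -4.43, -0.83 and -3.68 on non-nephritic IKK2 knockout arrays. Gcnt1 lay at -0.54, -0.0017 and -0.18 on nephritic and -1.95, -2.02 and -2.28 on non-nephritic Cre control arrays. The NEMO knockout arrays lay above all others, and the nephritic IKK2 knockout arrays lay below all Cre control arrays. Replicate 2 of the non-nephritic IKK2 knockout, at -0.83, stood well above the other arrays of its group. In the NEMO knockout Gcnt1 was higher than in Cre control by 2.0 (SE 0.77, adjusted p = 0.0481) with nephritis, a 4.01-fold difference, and by 3.82 (SE 0.77, adjusted p = 0.00188) without. In the nephritic IKK2 knockout it was lower, at -4.17 (SE 0.69, adjusted p = 0.00994), whereas without nephritis the difference of -0.89 (SE 0.69, adjusted p = 0.414) did not pass.

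The low Gcnt1 reading of the nephritic IKK2 knockout rested on a single probe near background. That probe was well above background on 1 of 3 nephritic IKK2 knockout arrays. The other Gcnt1 probe gave -2.77, -3.71 and -3.24 on nephritic IKK2 knockout arrays and -3.46, -3.35 and -3.47 on nephritic Cre control arrays, a difference of 0.19 (unadjusted p = 0.521). Without nephritis that other probe read -3.56, -3.52 and -2.45 on IKK2 knockout arrays and -5.23, -4.86 and -5.10 on Cre control arrays. There the IKK2 knockout arrays lay above these Cre controls, whereas on the probe used the groups overlapped. For the NEMO knockout both probes went the same way: the other probe differed from Cre control by 2.78 with and 4.08 without nephritis. The size of the IKK2 knockout difference also moved with the processing, to -1.87 with normexp background correction (adjusted p = 0.00579), -2.59 in the authors' deposited table (adjusted p = 0.00677) and -1.99 as the mean of both probes (adjusted p = 0.0189). Without replicate 2 of the nephritic IKK2 knockout it was -3.81 (adjusted p = 0.0520). In the NEMO knockout with nephritis the Gcnt1 call was lost when any of the 5 arrays compared was left out, with an adjusted p of up to 0.153 (2.0, without nephritic NEMO knockout replicate 2).

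Fut7 encodes the fucosyltransferase that completes the selectin-binding sugar in leukocytes. Fut7 levels on NEMO knockout arrays were 3.34 and 3.28 with nephritis and 3.27 and 3.29 without. Fut7 levels on IKK2 knockout arrays were -0.11, -0.11 and 0.15 with nephritis and 0.49, 0.46 and 0.41 without. Fut7 on Cre control arrays was 1.67, 0.90 and 0.70 with nephritis and -0.13, 0.04 and 0.14 without. The 4 NEMO knockout arrays lay within a narrow band above every other array. The 3 nephritic IKK2 knockout arrays lay below the 3 nephritic Cre control arrays, and without nephritis the IKK2 knockout arrays lay above the Cre controls. The Fut7 level in the NEMO knockout exceeded Cre control by 2.22 (SE 0.22, adjusted p = 9.84e-06) with nephritis and by 3.26 (SE 0.22, adjusted p = 9.51e-07) without, a 9.61-fold difference. In the nephritic IKK2 knockout Fut7 was lower than in Cre control, by -1.11 (SE 0.19, adjusted p = 0.0122), and the other probe gave -1.44. Without replicate 2 of the nephritic IKK2 knockout the Fut7 difference was -1.07 with an adjusted p of 0.0616. The difference without nephritis, 0.44 (SE 0.19, adjusted p = 0.152), did not pass.

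**Figure D2:**
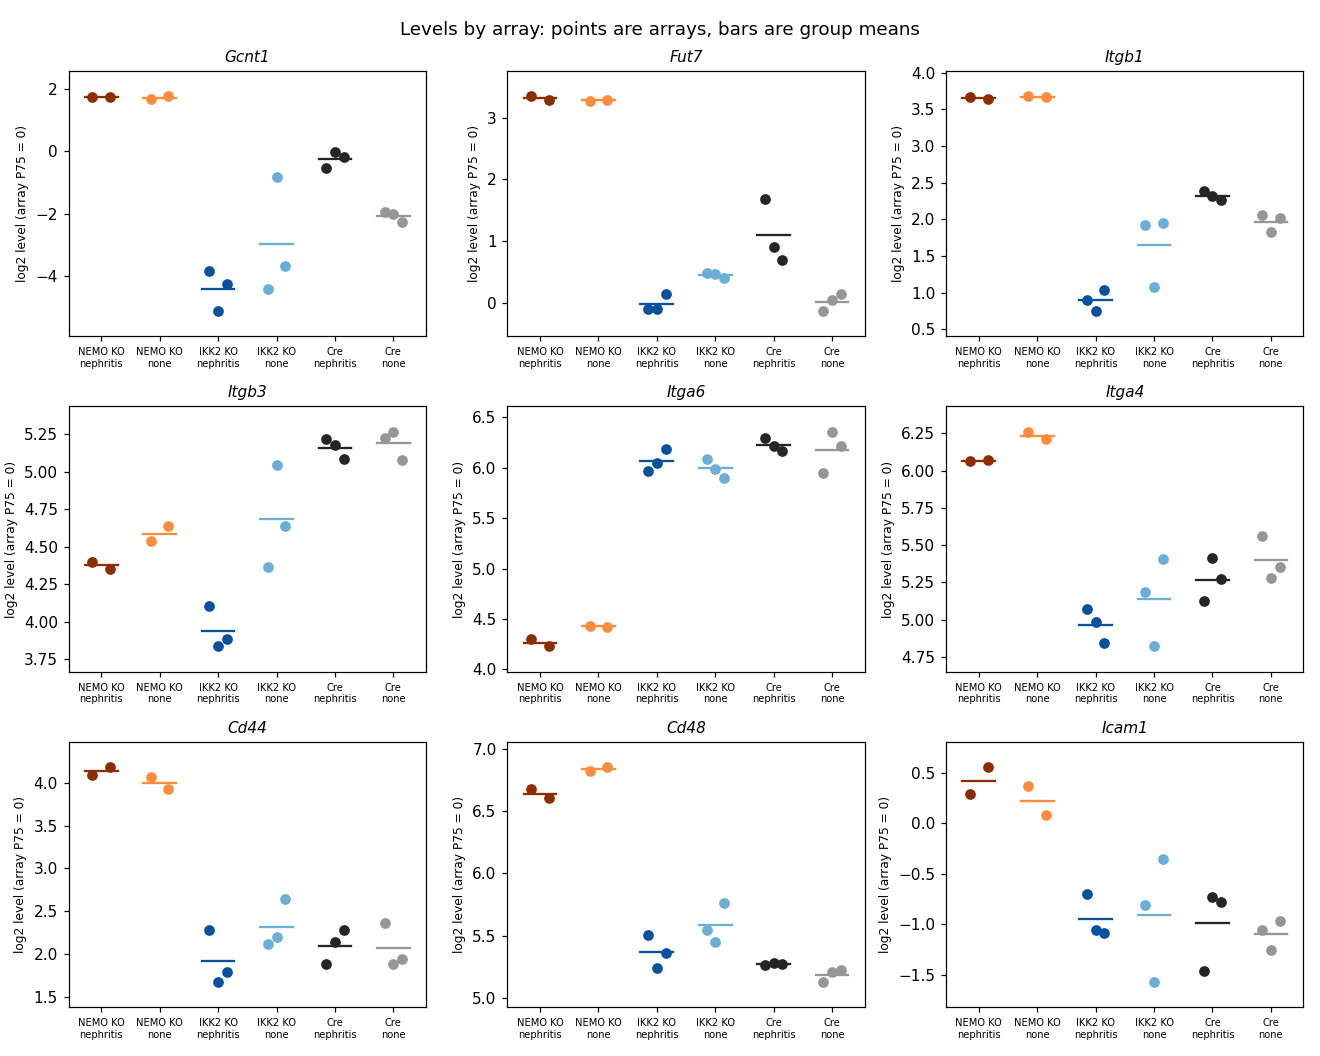
Level of 9 genes on each array (vertical axis, log2 intensity relative to the array's 75th percentile) by genotype and nephritis (horizontal axis). Points are arrays and bars are group means. The 4 NEMO knockout arrays lie above all others for Gcnt1, Fut7, Itgb1, Itga4, Cd44, Cd48 and Icam1 and below all others for Itga6.

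Selplg encodes PSGL-1, the backbone that Gcnt1 and Fut7 products decorate. Selplg gave 6.32 and 6.36 on NEMO knockout arrays with nephritis and 6.45 and 6.37 on those without. Selplg came to 6.36, 6.37 and 6.12 on nephritic IKK2 knockout arrays and 6.34, 6.14 and 6.18 on non-nephritic ones. Selplg measured 6.10, 6.17 and 5.91 on nephritic Cre control arrays and 6.09, 6.01 and 5.89 on non-nephritic ones. NEMO knockout arrays lay above Cre control arrays in both conditions, with small gaps. Selplg was higher in the NEMO knockout by 0.28 (SE 0.11, adjusted p = 0.0482) with nephritis and 0.41 (SE 0.11, adjusted p = 0.00960) without. The IKK2 knockout differences of 0.22 and 0.22 did not pass. Selp encodes P-selectin, the receptor on platelets and endothelium. Selp read -4.56 and -4.81 on nephritic and -4.37 and -4.09 on non-nephritic NEMO knockout arrays. Selp stood at -3.60, -3.53 and -3.53 on nephritic and -4.01, -4.19 and -3.70 on non-nephritic IKK2 knockout arrays. Selp lay at -4.18, -3.81 and -4.21 on nephritic and -3.75, -3.64 and -3.84 on non-nephritic Cre control arrays. Its probe was dim, well above background on 11 of 16 arrays and on no nephritic Cre control array. Selp was lower in the NEMO knockout than in Cre control by -0.48 (SE 0.16, adjusted p = 0.0285) without nephritis. With nephritis the difference was -0.62 (SE 0.16, adjusted p = 0.00744) and no fold is given, since no nephritic Cre control array measured it well above background.

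The beta chains decide which family an integrin belongs to. Of 6 tested, 4 were called higher and 1 lower in the NEMO knockout in both conditions, 2 were called lower in the nephritic IKK2 knockout, and 2 higher and 1 lower in the IKK2 knockout without nephritis. Of all genes, 18.8% were higher and 29.6% lower in the NEMO knockout with nephritis, and 21.0% and 22.0% without. In the IKK2 knockout these shares were 0.988% and 1.59% with nephritis, and 10.0% and 4.53% without. Itgb1 encodes beta 1, the chain shared by the VLA integrins that bind fibronectin, collagen, laminin and VCAM-1. Itgb1 levels on NEMO knockout arrays were 3.66 and 3.65 with nephritis and 3.67 and 3.67 without. Itgb1 levels on IKK2 knockout arrays were 0.89, 0.75 and 1.03 with nephritis and 1.92, 1.07 and 1.95 without. Itgb1 on Cre control arrays was 2.39, 2.32 and 2.26 with nephritis and 2.06, 1.82 and 2.02 without. The NEMO knockout arrays lay above all others by more than the spread within any group, and the nephritic IKK2 knockout arrays lay below all others. In the NEMO knockout Itgb1 was higher by 1.33 (SE 0.21, adjusted p = 0.000317) with nephritis and 1.71 (SE 0.21, adjusted p = 5.50e-05) without. In the nephritic IKK2 knockout it was lower by -1.43 (SE 0.19, adjusted p = 0.00298), a 2.69-fold difference, and the other probe gave -1.09. Without nephritis the IKK2 knockout difference was -0.32 (SE 0.19, adjusted p = 0.280), with an interval of -0.73 to 0.091. This did not pass.

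Itgb3 encodes beta 3, which pairs with alpha IIb on platelets and with alpha V on many cells. Itgb3 gave 4.40 and 4.35 on NEMO knockout arrays with nephritis and 4.53 and 4.64 on those without. Itgb3 came to 4.10, 3.84 and 3.88 on nephritic IKK2 knockout arrays and 4.36, 5.04 and 4.64 on non-nephritic ones. Itgb3 measured 5.22, 5.18 and 5.08 on nephritic Cre control arrays and 5.23, 5.26 and 5.08 on non-nephritic ones. Both knockouts lay below Cre control in both conditions, with no overlap between groups, and the nephritic IKK2 knockout arrays were the lowest of all. Itgb3 was lower in the NEMO knockout by -0.78 (SE 0.16, adjusted p = 0.00165) with nephritis and -0.60 (SE 0.16, adjusted p = 0.00896) without. It was lower in the IKK2 knockout by -1.22 (SE 0.14, adjusted p = 0.00140) with nephritis and -0.51 (SE 0.14, adjusted p = 0.0330) without. The other Itgb3 probe did not repeat these sizes. It read -0.86 and -0.82 on nephritic NEMO knockout, -0.86, -0.90 and -1.26 on nephritic IKK2 knockout and -0.61, -0.73 and -0.84 on nephritic Cre control arrays. Its differences from Cre control were -0.11 and -0.084 in the NEMO knockout and -0.28 and 0.023 in the IKK2 knockout, with unadjusted p-values of 0.497, 0.617, 0.0773 and 0.875. Without nephritis the Itgb3 call of the IKK2 knockout was lost in 5 of the 6 fits that left out an array, with -0.35 (adjusted p = 0.0918) without replicate 1 of the knockout.

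**Figure D3:**
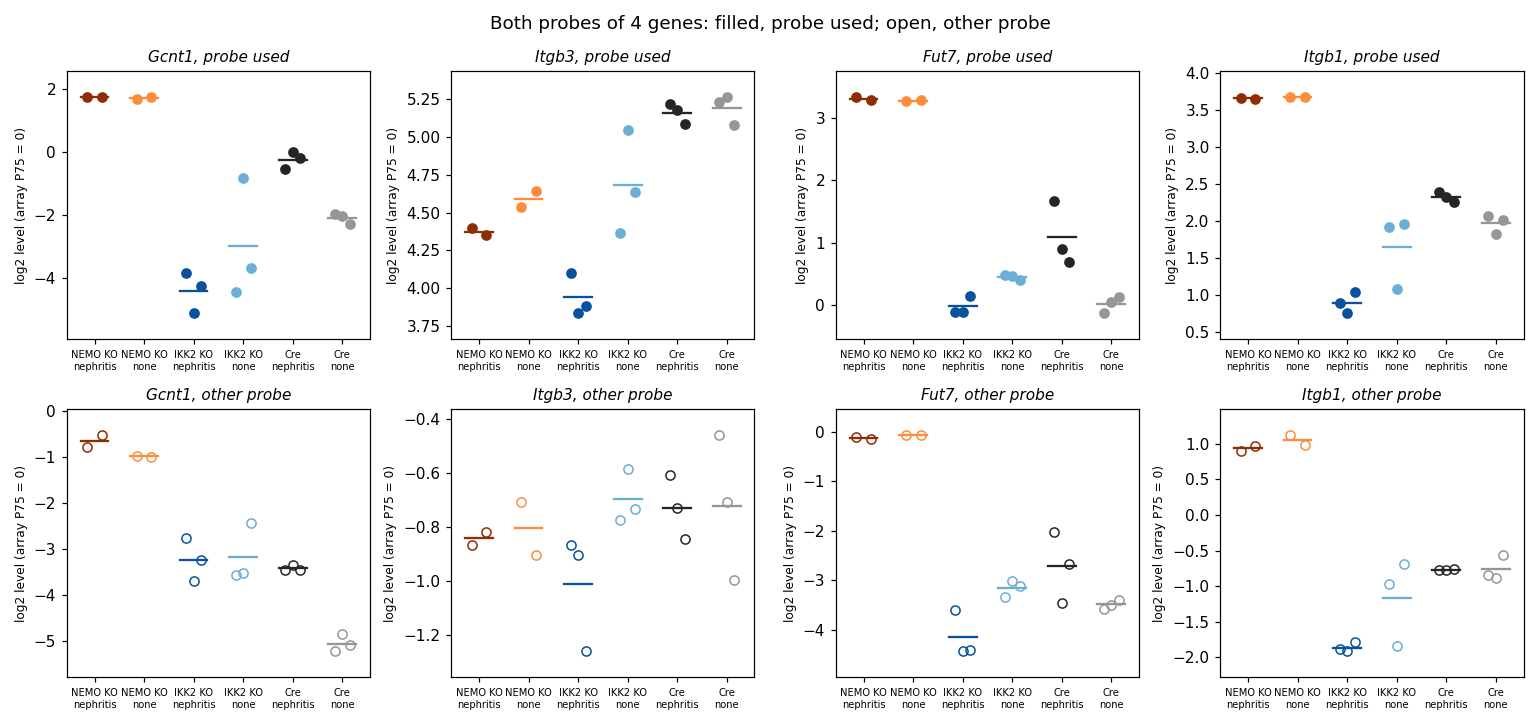
Level on each array (vertical axis, log2 intensity relative to the array's 75th percentile) of both probes of Gcnt1, Itgb3, Fut7 and Itgb1, by group (horizontal axis). Filled points are the probe used, open points the other probe, and bars the group means. The open points of Fut7 and Itgb1 follow the filled ones, whereas on nephritic arrays the other Gcnt1 probe does not separate the IKK2 knockout from Cre control and the other Itgb3 probe shows overlapping groups. On non-nephritic arrays the other Gcnt1 probe lies higher in the IKK2 knockout than in Cre control.

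The comparison of nephritic IKK2 knockout and Cre control arrays lay wholly on slide 1, and a model with slide as a block kept Gcnt1, Fut7, Itgb1 and Itgb3 as calls. That block could not change these 4 differences, because all arrays compared shared a slide, and it altered only the fitted spread. In a model of the 8 slide 1 arrays alone the same 4 differences had adjusted p-values of 0.0528 for Itgb1, 0.0526 for Itgb3, 0.115 for Gcnt1 and 0.132 for Fut7, so none passed there. With only the 6 arrays compared, Fut7 had an adjusted p of 0.174 and the other 3 passed. The difference between the knockouts was tested directly. With nephritis, NEMO knockout arrays exceeded IKK2 knockout arrays in Gcnt1 by 6.17 (SE 0.77, adjusted p = 6.10e-05) on the probe used, which was near background there, in Fut7 by 3.34 (SE 0.22, adjusted p = 6.58e-07) and in Itgb1 by 2.76 (SE 0.21, adjusted p = 1.78e-06). The other Gcnt1 probe gave 2.59 for this difference, and the probe used gave 3.71 with normexp. In that comparison 22 members were called, against 46.1% of all genes, 17 higher and 5 lower, against 19.0% and 27.2% of all genes. Without nephritis 18 were called, against 35.3%, 13 higher and 5 lower, against 15.4% and 19.9%. These 2 comparisons share the NEMO arrays with the comparisons against Cre control.

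Itgb2 encodes the beta 2 chain of LFA-1 and of the myeloid integrins. Itgb2 read 5.24 and 5.27 on nephritic and 5.16 and 5.29 on non-nephritic NEMO knockout arrays. Itgb2 stood at 4.82, 4.62 and 4.54 on nephritic and 5.11, 4.89 and 5.06 on non-nephritic IKK2 knockout arrays. Itgb2 lay at 4.73, 4.87 and 4.59 on nephritic and 4.82, 4.52 and 4.49 on non-nephritic Cre control arrays. NEMO knockout arrays lay above Cre control arrays in both conditions. Itgb2 was higher in the NEMO knockout by 0.52 (SE 0.13, adjusted p = 0.00505) with nephritis and 0.61 (SE 0.13, adjusted p = 0.00224) without, and in the non-nephritic IKK2 knockout by 0.41 (SE 0.11, adjusted p = 0.0331). Itgb7 encodes the beta 7 chain, which with alpha 4 binds the gut addressin MAdCAM-1. Itgb7 levels on NEMO knockout arrays were 7.83 and 7.82 with nephritis and 7.92 and 7.88 without. Itgb7 levels on IKK2 knockout arrays were 7.56, 7.26 and 7.36 with nephritis and 7.70, 7.53 and 7.69 without. Itgb7 on Cre control arrays was 7.61, 7.56 and 7.23 with nephritis and 7.43, 7.38 and 7.22 without. Its NEMO knockout differences were small, 0.36 (SE 0.12, adjusted p = 0.0313) with nephritis and 0.56 (SE 0.12, adjusted p = 0.00322) without, and the groups did not overlap. Itgb4, the laminin-binding chain of epithelia, was dim and not called, at -5.25 to -3.66 over all arrays.

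Among 14 alpha chains tested, 7 were called higher and 2 lower in the NEMO knockout in each condition, none in the nephritic IKK2 knockout, and 5 higher and 1 lower in the IKK2 knockout without nephritis. For all genes the NEMO knockout shares were 18.8% higher and 29.6% lower with nephritis, and 21.0% and 22.0% without. Those of the IKK2 knockout were 2.58% in either direction with nephritis, and 10.0% higher and 4.53% lower without. Itga4 encodes alpha 4, which pairs with beta 1 as VLA-4, a receptor of VCAM-1, and with beta 7. Itga4 gave 6.07 and 6.07 on NEMO knockout arrays with nephritis and 6.26 and 6.21 on those without. Itga4 came to 5.07, 4.98 and 4.84 on nephritic IKK2 knockout arrays and 5.19, 4.82 and 5.41 on non-nephritic ones. Itga4 measured 5.12, 5.41 and 5.27 on nephritic Cre control arrays and 5.56, 5.28 and 5.35 on non-nephritic ones. In both conditions the NEMO knockout arrays were the highest. Itga4 was higher there by 0.80 (SE 0.15, adjusted p = 0.00121) with nephritis and 0.84 (SE 0.15, adjusted p = 0.000990) without, 1.74-fold and 1.79-fold. Its other probe differed by 0.41 and 0.51 (unadjusted p = 0.0714 and 0.0323). The IKK2 knockout differences, -0.30 and -0.26, did not pass. Itgal encodes alpha L, the chain that makes LFA-1 with beta 2 and binds ICAM-1. Itgal read 3.45 and 3.59 on nephritic and 3.42 and 3.46 on non-nephritic NEMO knockout arrays. Itgal stood at 2.84, 2.49 and 2.48 on nephritic and 2.89, 2.82 and 3.0 on non-nephritic IKK2 knockout arrays. Itgal lay at 2.71, 2.66 and 2.56 on nephritic and 2.70, 2.21 and 2.07 on non-nephritic Cre control arrays. NEMO knockout arrays stood above every Cre control array. Itgal was higher in the NEMO knockout by 0.88 (SE 0.16, adjusted p = 0.00107) with nephritis and 1.11 (SE 0.16, adjusted p = 0.000220) without, and the other probe gave 1.09 and 1.19. In the IKK2 knockout it was higher without nephritis, by 0.58 (SE 0.15, adjusted p = 0.0235), and not called with nephritis (-0.04).

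A pair of alpha chains ran the other way. Itga6 encodes alpha 6, a laminin receptor chain that is carried by naive T cells. Itga6 levels on NEMO knockout arrays were 4.30 and 4.23 with nephritis and 4.43 and 4.42 without. Itga6 levels on IKK2 knockout arrays were 5.97, 6.05 and 6.18 with nephritis and 6.09, 5.99 and 5.90 without. Itga6 on Cre control arrays was 6.30, 6.22 and 6.17 with nephritis and 5.94, 6.35 and 6.22 without. All NEMO knockout arrays lay clearly below all other arrays. Itga6 was lower in the NEMO knockout by -1.96 (SE 0.11, adjusted p = 3.62e-07) with nephritis and -1.75 (SE 0.11, adjusted p = 8.69e-07) without, or 3.90-fold and 3.35-fold, and in the IKK2 knockout the differences of -0.16 and -0.18 did not pass. Itga5 encodes alpha 5 of the fibronectin receptor. Itga5 gave -4.52 and -4.12 on NEMO knockout arrays with nephritis and -5.03 and -5.30 on those without. Itga5 came to -3.54, -2.83 and -3.28 on nephritic IKK2 knockout arrays and -2.55, -2.49 and -2.85 on non-nephritic ones. Itga5 measured -3.33, -3.06 and -3.34 on nephritic Cre control arrays and -3.23, -3.36 and -3.39 on non-nephritic ones. On non-nephritic NEMO knockout arrays its probe was not well above background, and no fold is given there. Its fitted difference from Cre control was -1.84 (SE 0.20, adjusted p = 2.32e-05), and this became -0.67 with normexp background correction and -0.64 in the authors' deposited table. With nephritis it was lower by -1.08 (SE 0.20, adjusted p = 0.000947), against -0.59 (adjusted p = 0.00473) with normexp and -0.32 (adjusted p = 0.0642) in the authors' deposited table. Itga5 in the IKK2 knockout was higher without nephritis, by 0.70 (SE 0.18, adjusted p = 0.0235), a call that was lost with normexp, at 0.21 (adjusted p = 0.377), and in the authors' deposited table, at 0.28 (adjusted p = 0.132). The fitted difference of the NEMO knockout from the IKK2 knockout was -2.53 (SE 0.20, adjusted p = 5.60e-06) without nephritis, against -0.88 with normexp and -0.93 in the authors' deposited table.

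Alpha 1 and alpha 2 are the collagen-binding partners of beta 1 and are known from memory and tissue-resident T cells. Itga1 read 0.22 and 0.62 on nephritic and 0.12 and 0.33 on non-nephritic NEMO knockout arrays. Itga1 stood at -2.61, -2.14 and -1.98 on nephritic and -0.11, -0.87 and -1.31 on non-nephritic IKK2 knockout arrays. Itga1 lay at -2.39, -2.11 and -1.77 on nephritic and -1.57, -0.46 and -1.39 on non-nephritic Cre control arrays. The highest 4 of 16 arrays were those of the NEMO knockout. Itga1 was higher in the NEMO knockout by 2.51 (SE 0.38, adjusted p = 0.000227) with nephritis and 1.37 (SE 0.38, adjusted p = 0.0117) without, and the other probe gave 3.04 and 2.02. Itga2 levels on NEMO knockout arrays were -1.88 and -1.75 with nephritis and -1.67 and -1.71 without. Itga2 levels on IKK2 knockout arrays were -3.92, -4.04 and -4.15 with nephritis and -3.89, -4.48 and -3.14 without. Itga2 on Cre control arrays was -4.83, -4.19 and -3.95 with nephritis and -3.48, -3.82 and -3.58 without. All NEMO knockout arrays stood above all others, and the Itga2 probe was well above background on 1 of 3 nephritic Cre control arrays. Itga2 was higher in the NEMO knockout by 2.51 (SE 0.32, adjusted p = 7.17e-05) with nephritis and 1.93 (SE 0.32, adjusted p = 0.000507) without. The sizes were smaller with normexp, 0.90 and 0.86, and with nephritis in the authors' deposited table, 1.63, and all 3 passed. Markers of CD8 and NK cells, which also carry alpha 1 and alpha 2, had a mean level of 0.67 to 0.69 on nephritic and 0.20 to 0.53 on non-nephritic NEMO knockout arrays, against -0.82 to 0.044 on nephritic and -0.66 to -0.58 on non-nephritic Cre control arrays. Their part in the Itga1 and Itga2 differences was not tested.

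Several other alpha chains had small or single calls. Itgav encodes alpha V, a receptor chain for vitronectin that also takes part in the activation of TGF-beta. Itgav gave -0.037 and -0.14 on NEMO knockout arrays with nephritis and -0.43 and -0.13 on those without. Itgav came to -1.09, -0.98 and -0.88 on nephritic IKK2 knockout arrays and -1.20, -0.77 and -0.72 on non-nephritic ones. Itgav measured -0.68, -0.53 and -0.54 on nephritic Cre control arrays and -0.66, -0.35 and -0.61 on non-nephritic ones. It was higher in the nephritic NEMO knockout by 0.49 (SE 0.15, adjusted p = 0.0192), while the non-nephritic difference of 0.26 did not pass. Itga3 encodes alpha 3, a laminin receptor chain. Itga3 read -3.33 and -2.69 on nephritic and -2.74 and -2.75 on non-nephritic NEMO knockout arrays. Itga3 stood at -3.39, -3.71 and -3.72 on nephritic and -3.10, -4.06 and -3.31 on non-nephritic IKK2 knockout arrays. Itga3 lay at -4.12, -3.53 and -3.30 on nephritic and -3.45, -3.70 and -3.79 on non-nephritic Cre control arrays. It was higher in the non-nephritic NEMO knockout by 0.90 (SE 0.30, adjusted p = 0.0283), and 0.64 with nephritis did not pass. Itga7, another laminin receptor chain, was lower in the non-nephritic IKK2 knockout. Itga7 levels on NEMO knockout arrays were 1.98 and 1.84 with nephritis and 2.01 and 1.83 without. Itga7 levels on IKK2 knockout arrays were 1.5, 1.37 and 1.33 with nephritis and 1.58, 0.81 and 1.04 without. Itga7 on Cre control arrays was 1.98, 1.97 and 2.03 with nephritis and 1.83, 2.36 and 2.30 without. The IKK2 knockout arrays lay below Cre control in both conditions, with a call at -1.02 (SE 0.18, adjusted p = 0.00433) without nephritis and none at -0.59 (SE 0.18, adjusted p = 0.112) with nephritis. Itga9 encodes alpha 9, which binds tenascin and osteopontin. Itga9 gave -3.20 and -3.50 on NEMO knockout arrays with nephritis and -3.19 and -3.05 on those without. Itga9 came to -2.76, -2.26 and -2.40 on nephritic IKK2 knockout arrays and -2.06, -2.10 and -2.14 on non-nephritic ones. Itga9 measured -3.33, -2.64 and -2.45 on nephritic Cre control arrays and -2.84, -3.38 and -3.21 on non-nephritic ones. Its IKK2 knockout arrays without nephritis lay above the Cre controls, by 1.04 (SE 0.21, adjusted p = 0.00900).

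Itga2b, the platelet chain, and Itgam, the alpha M chain of myeloid cells and activated lymphocytes, were not called against Cre control. Itga2b ranged from -5.86 to -1.30 over the arrays, with 1 nephritic Cre control array at the lowest value. Itgam ranged from 4.57 to 6.43, and its differences from Cre control were -0.34 and -0.66 in the NEMO knockout and -0.33 and -0.99 in the IKK2 knockout. Itgam had 3 probes, and the others ranged from -4.63 to -3.15 and from -2.39 to -1.58. On the former the NEMO knockout arrays, at -4.40 and -4.24 with and -4.07 and -4.63 without nephritis, lay below all others. The non-nephritic IKK2 knockout and Cre control arrays overlapped on it. On the latter these IKK2 knockout arrays, at -1.61, -1.87 and -1.58, lay above the Cre controls, at -2.15, -2.15 and -2.11.

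A group of 4 members was set beside genes of other cells. Itgax encodes alpha X (CD11c), known from dendritic cells and macrophages, and Itgad encodes alpha D, known from splenic macrophages. Itgax read 3.02 and 3.12 on nephritic and 2.79 and 2.53 on non-nephritic NEMO knockout arrays. Itgax stood at 2.22, 2.31 and 1.61 on nephritic and 2.08, 2.50 and 2.62 on non-nephritic IKK2 knockout arrays. Itgax lay at -1.44, 1.96 and 1.02 on nephritic and -1.61, -0.25 and -0.97 on non-nephritic Cre control arrays. Non-nephritic Cre control arrays and replicate 1 of the nephritic Cre controls were low, and all knockout arrays were high. Itgax was higher in the NEMO knockout by 2.56 (SE 0.74, adjusted p = 0.0133) with nephritis and 3.60 (SE 0.74, adjusted p = 0.00209) without, and in the non-nephritic IKK2 knockout by 3.34 (SE 0.66, adjusted p = 0.00740). Itgad levels on NEMO knockout arrays were -0.0066 and -0.16 with nephritis and 0.024 and -0.41 without. Itgad levels on IKK2 knockout arrays were -1.81, -2.18 and -2.57 with nephritis and -1.85, -1.24 and -1.02 without. Itgad on Cre control arrays was -3.83, -2.30 and -2.58 with nephritis and -2.75, -3.05 and -3.23 without. NEMO knockout arrays were the highest, and non-nephritic IKK2 knockout arrays lay above all Cre control arrays. Itgad was higher in the NEMO knockout by 2.82 (SE 0.40, adjusted p = 0.000150) with nephritis and 2.81 (SE 0.40, adjusted p = 0.000167) without, and in the non-nephritic IKK2 knockout by 1.64 (SE 0.36, adjusted p = 0.0117).

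Itgb5 encodes beta 5, a partner of alpha V on macrophages and epithelia. Itgb5 gave -0.45 and -0.42 on NEMO knockout arrays with nephritis and -1.0 and -0.93 on those without. Itgb5 came to -2.42, -2.25 and -2.80 on nephritic IKK2 knockout arrays and -1.51, -1.70 and -1.55 on non-nephritic ones. Itgb5 measured -3.43, -1.81 and -1.84 on nephritic Cre control arrays and -3.12, -3.17 and -2.91 on non-nephritic ones. NEMO knockout arrays were the highest and non-nephritic Cre control arrays were among the lowest. Itgb5 was higher in the NEMO knockout by 1.92 (SE 0.37, adjusted p = 0.00135) with nephritis and 2.10 (SE 0.37, adjusted p = 0.000840) without, and in the non-nephritic IKK2 knockout by 1.48 (SE 0.33, adjusted p = 0.0139). Vcam1 encodes the VLA-4 ligand of endothelium and of splenic macrophages and stroma. Vcam1 read 1.24 and 0.85 on nephritic and 1.18 and 0.62 on non-nephritic NEMO knockout arrays. Vcam1 stood at -0.64, -1.85 and -2.46 on nephritic and -0.62, 0.74 and 0.041 on non-nephritic IKK2 knockout arrays. Vcam1 lay at -6.58, -1.90 and -1.51 on nephritic and -5.93, -2.68 and -4.5 on non-nephritic Cre control arrays. Its spread within Cre control was several log2 units. Vcam1 was higher in the NEMO knockout by 4.37 (SE 1.31, adjusted p = 0.0161) with nephritis and 5.27 (SE 1.31, adjusted p = 0.00668) without, and in the non-nephritic IKK2 knockout by 4.42 (SE 1.17, adjusted p = 0.0274). The other Vcam1 probe gave smaller differences of 1.95, 2.83 and 1.40.

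The mean level of 16 myeloid marker genes also differed between the groups. It lay at 0.34 to 0.65 on nephritic and -0.32 to 0.38 on non-nephritic NEMO knockout arrays. It lay at -1.21 to -0.69 on nephritic and -0.56 to -0.043 on non-nephritic IKK2 knockout arrays, and at -3.28 to -0.90 on nephritic and -3.47 to -2.31 on non-nephritic Cre control arrays. Of the 16, 13 were called higher in the NEMO knockout with nephritis and 15 without, 14 in the IKK2 knockout without nephritis and none with. In non-nephritic Cre control 2 of the 16 stayed near background on every array, and in the NEMO knockout all 16 were above background on at least 1 array of each condition. Of 14 B cell markers, 4 were called higher in the NEMO knockout with nephritis and 11 without, and 12 in the IKK2 knockout without nephritis. Of 9 dendritic cell markers, 5 and 6 were higher in the NEMO knockout and 3 in the non-nephritic IKK2 knockout. Among all genes, 18.8% and 21.0% were higher in the NEMO knockout with and without nephritis, and 10.0% in the non-nephritic IKK2 knockout. Itgal, Itgb2 and Cd48 were called higher in the same comparisons with Cre control as Itgax, Itgad, Itgb5 and Vcam1. The part of myeloid, B and dendritic cells in the differences of all these genes was not tested. The same holds for the other calls of the non-nephritic IKK2 knockout.

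**Figure D4:**
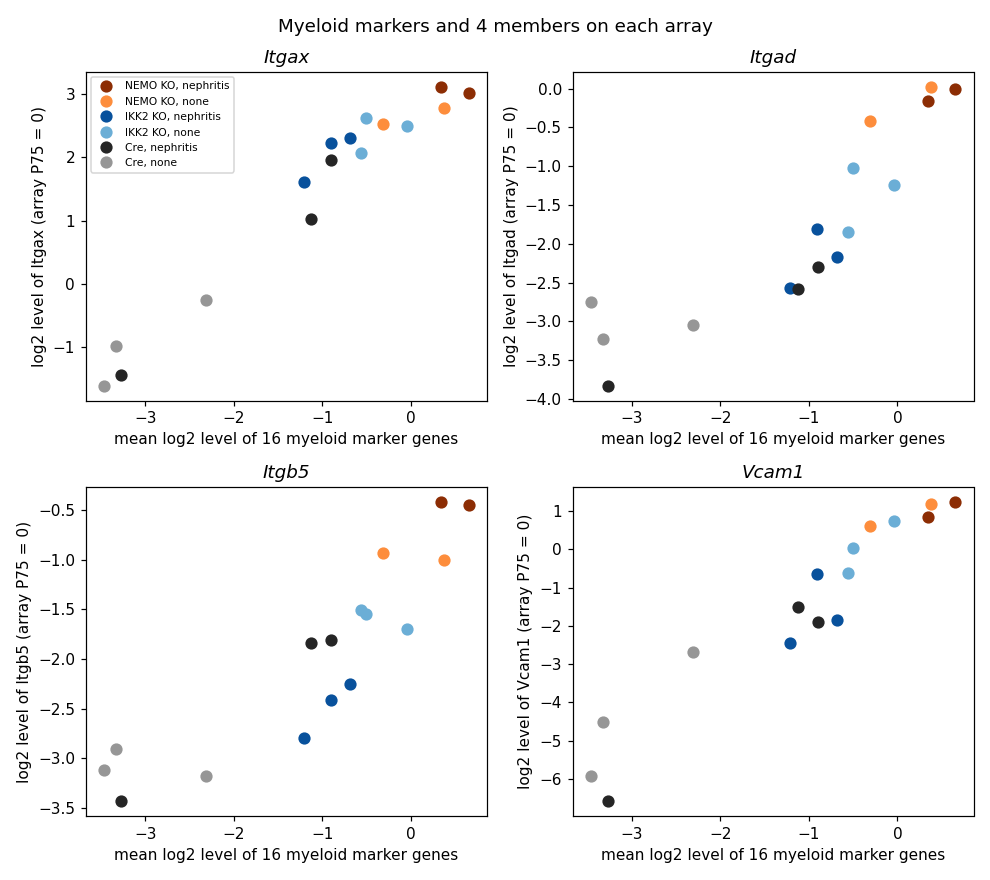
Level of Itgax, Itgad, Itgb5 and Vcam1 (vertical axes) against the mean level of 16 myeloid marker genes (horizontal axis) on the 16 arrays, both as log2 intensity relative to the array's 75th percentile. Each point is an array, coloured by genotype and nephritis. Arrays with low myeloid markers, the 3 non-nephritic Cre controls and 1 nephritic Cre control, have low levels of the 4 genes, and the NEMO knockout arrays are at the high end of both.

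Most calls of the IKK2 knockout without nephritis also differed in slide, since 2 of the 3 knockout arrays lay on slide 1 and the Cre controls on slide 2. With slide as a block 3 of 12 remained, Itga7 at -1.12 (adjusted p = 0.0354), Itgad at 1.99 (adjusted p = 0.0485) and Cd48 at 0.57 (adjusted p = 0.0136). The slide 2 values, from 1 knockout array against 3 controls, were 3.56 for Itgax, 1.99 for Itgad, 1.51 for Itgb5 and 4.41 for Vcam1. They had the sign of the full comparison, and none of the 12 passed on slide 2 alone. For Cd226 the slide 2 value was -0.23 (adjusted p = 0.568). A fit without 1 array ended the calls of Itga5, Itgal, Itgb2, Itgb3, Cd226 or Vcam1, depending on the array, and kept those of Itga7, Itga9, Itgad, Itgax, Itgb5 and Cd48.

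Background correction and scaling moved the size of several other differences by over 1.5 times. With normexp, the NEMO knockout differences with and without nephritis became 1.55 and 1.61 for Itgad, 1.10 and 1.16 for Itgb5 and 2.66 and 3.02 for Vcam1. In the non-nephritic IKK2 knockout they became 0.81, 0.73 and 2.25 for Itgad, Itgb5 and Vcam1, and all 9 still passed. The Itga9 call there became 0.42 (adjusted p = 0.0815) with normexp and 0.58 (adjusted p = 0.0101) in the authors' deposited table. The Itga3 call of the non-nephritic NEMO knockout was lost with normexp, at 0.089 (adjusted p = 0.665), and in the authors' deposited table, at 0.41 (adjusted p = 0.0910). Selp in the NEMO knockout was lost in that table, at -0.18 (adjusted p = 0.167) with nephritis and -0.14 (adjusted p = 0.289) without. Itgb7 and Selplg had larger differences in that table, 0.88 and 1.26 for Itgb7 and 0.44 and 0.67 for Selplg. As the mean of both probes, Itgb3 was -0.45 (adjusted p = 0.0177) and -0.34 (adjusted p = 0.0614) in the NEMO knockout with and without nephritis, and -0.75 (adjusted p = 0.0101) and -0.24 (adjusted p = 0.207) in the IKK2 knockout with and without nephritis.

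Of the ligands on the surface of cells, Icam1 encodes ICAM-1, the main LFA-1 ligand and a textbook target of NF-kB. Icam1 levels on NEMO knockout arrays were 0.29 and 0.55 with nephritis and 0.37 and 0.082 without. Icam1 levels on IKK2 knockout arrays were -0.70, -1.06 and -1.09 with nephritis and -0.81, -1.57 and -0.35 without. Icam1 on Cre control arrays was -1.47, -0.73 and -0.78 with nephritis and -1.06, -1.26 and -0.97 without. The NEMO knockout arrays lay above all others, and the IKK2 knockout arrays overlapped the Cre controls. Icam1 was higher in the NEMO knockout by 1.41 (SE 0.31, adjusted p = 0.00287) with nephritis and 1.32 (SE 0.31, adjusted p = 0.00485) without, 2.67-fold and 2.49-fold. Against Cre control the IKK2 knockout differed by 0.044 (interval -0.56 to 0.65) with nephritis and 0.18 (interval -0.42 to 0.79) without, and neither passed. Icam2 encodes ICAM-2, a constitutive LFA-1 ligand. Icam2 gave 5.50 and 5.38 on NEMO knockout arrays with nephritis and 5.54 and 5.61 on those without. Icam2 came to 6.17, 6.08 and 6.24 on nephritic IKK2 knockout arrays and 6.43, 6.28 and 6.18 on non-nephritic ones. Icam2 measured 6.48, 6.36 and 6.25 on nephritic Cre control arrays and 6.07, 6.20 and 6.02 on non-nephritic ones. The NEMO knockout arrays lay below all others. Icam2 was lower in the NEMO knockout by -0.92 (SE 0.10, adjusted p = 1.98e-05) with nephritis and -0.52 (SE 0.10, adjusted p = 0.00128) without. Icam4 encodes ICAM-4, known from red cells. Icam4 read -2.64 and -2.53 on nephritic and -2.51 and -3.30 on non-nephritic NEMO knockout arrays. Icam4 stood at -2.73, -2.16 and -2.29 on nephritic and -2.31, -2.95 and -3.34 on non-nephritic IKK2 knockout arrays. Icam4 lay at -1.84, -1.86 and -0.96 on nephritic and -2.08, -2.38 and -2.40 on non-nephritic Cre control arrays. It was lower in the nephritic NEMO knockout, by -1.03 (SE 0.34, adjusted p = 0.0270). The call was lost without replicate 3 of the nephritic Cre controls, at -0.74 (adjusted p = 0.0855), the array on which erythroid markers stood highest at 1.05. None of 9 erythroid markers was called in that comparison, and their mean was -1.99 to -1.30 on nephritic NEMO knockout and -3.62 to 1.05 on nephritic Cre control arrays. Their part in the Icam4 difference was not tested.

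Cd44 encodes the receptor of hyaluronan, which marks effector and memory T cells. Cd44 levels on NEMO knockout arrays were 4.09 and 4.18 with nephritis and 4.06 and 3.92 without. Cd44 levels on IKK2 knockout arrays were 2.28, 1.67 and 1.78 with nephritis and 2.12, 2.19 and 2.64 without. Cd44 on Cre control arrays was 1.88, 2.13 and 2.28 with nephritis and 2.37, 1.88 and 1.94 without. The NEMO knockout arrays stood well above the others, which overlapped. Cd44 was higher in the NEMO knockout by 2.04 (SE 0.21, adjusted p = 1.72e-05) with nephritis and 1.93 (SE 0.21, adjusted p = 2.73e-05) without, 4.11-fold and 3.81-fold. The 3 other Cd44 probes gave 1.32, 1.78 and 2.10 with nephritis and 1.23, 1.84 and 2.11 without. The IKK2 knockout differences were -0.18 (interval -0.60 to 0.23) and 0.25 (interval -0.17 to 0.67), neither past the threshold.

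Contact receptors steady the T cell against its partner. Cd48 encodes the ligand of CD2 in the mouse. Cd48 gave 6.68 and 6.6 on NEMO knockout arrays with nephritis and 6.82 and 6.85 on those without. Cd48 came to 5.50, 5.24 and 5.36 on nephritic IKK2 knockout arrays and 5.54, 5.44 and 5.76 on non-nephritic ones. Cd48 measured 5.27, 5.28 and 5.27 on nephritic Cre control arrays and 5.13, 5.20 and 5.22 on non-nephritic ones. NEMO knockout arrays lay above all others with little spread. Cd48 was higher in the NEMO knockout by 1.37 (SE 0.10, adjusted p = 1.37e-06) with nephritis and 1.65 (SE 0.10, adjusted p = 6.57e-07) without, and in the non-nephritic IKK2 knockout by 0.40 (SE 0.088, adjusted p = 0.0126). Its other probe gave 1.59, 1.97 and 0.66. Cd226 encodes DNAM-1, an activating receptor that works with LFA-1. Cd226 read 1.71 and 1.81 on nephritic and 1.89 and 1.83 on non-nephritic NEMO knockout arrays. Cd226 stood at 0.32, 0.12 and -0.054 on nephritic and -0.089, 0.23 and 0.83 on non-nephritic IKK2 knockout arrays. Cd226 lay at 0.47, 0.69 and 0.81 on nephritic and 0.91, 1.12 and 1.12 on non-nephritic Cre control arrays. In each condition the NEMO knockout arrays lay above and the IKK2 knockout arrays below the Cre controls. Cd226 was higher in the NEMO knockout by 1.10 (SE 0.21, adjusted p = 0.00126) with nephritis and 0.81 (SE 0.21, adjusted p = 0.00927) without, and lower in the non-nephritic IKK2 knockout by -0.73 (SE 0.19, adjusted p = 0.0264). The part of CD8 and NK cells, whose markers are given with Itga2 and which also carry DNAM-1, was not tested. Between the knockouts the Cd226 difference was 1.63 (SE 0.21, adjusted p = 8.44e-05) with nephritis and 1.53 (SE 0.21, adjusted p = 0.000203) without. Cd2, the T cell receptor of CD48, was not called in any comparison with Cre control and stayed between 6.85 and 7.38 on all arrays.

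The linkers Tln1 (talin) and Fermt3 (kindlin-3) join beta tails to actin and switch integrins to the binding state. Neither was called against Cre control. Tln1 lay between 6.67 and 7.25 on all arrays, with NEMO knockout differences of 0.0091 (interval -0.21 to 0.23) and 0.26 (interval 0.037 to 0.48). Fermt3 lay between 3.33 and 4.12, with -0.32 (interval -0.60 to -0.04) and -0.12 (interval -0.40 to 0.16). Fermt3 was lower in the NEMO knockout than in the IKK2 knockout without nephritis, by -0.38 (SE 0.13, adjusted p = 0.0376), and that call was lost without either non-nephritic NEMO knockout array (without replicate 1, -0.37, adjusted p = 0.148).

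Few adhesion genes were called for nephritis itself in splenic CD4+ T cells. In Cre control 1 member was called, against 4.03% of all genes: Fut7 was higher and none was lower, against 2.57% and 1.47% of all genes. The IKK2 knockout also had 1 call, against 0.443% of all genes, with none higher and Itgb3 lower, against 0.245% and 0.198%. In the NEMO knockout limma called no member, against 0.416% of all genes in either direction, 0.0613% of all genes higher and 0.354% lower. Limma's unadjusted p was under 0.05 for 10 of 34 members in Cre control, 11 in the IKK2 knockout and 2 in the NEMO knockout. Of all 14674 genes it was under 0.05 for 3625, 2190 and 936 in the same order. The member medians were -0.011 in the NEMO knockout, -0.23 in the IKK2 knockout and 0.094 in Cre control, and those of all genes were -0.023, 0.0061 and 0.10. Fut7 was higher in nephritic than in non-nephritic Cre control arrays by 1.08 (SE 0.19, adjusted p = 0.0173), and the groups did not overlap. The Cre control arrays of the 2 conditions lay on different slides, and with slide as a block, estimated through the IKK2 knockout, the difference was 1.01 (adjusted p = 0.326). Without replicate 1 of the non-nephritic Cre controls it was 1.0 (adjusted p = 0.0592). For nephritis in Cre control, 5 of 14 B cell, 2 of 6 plasma cell and 2 of 16 myeloid markers were called higher. Of 9 erythroid markers 1 was higher, and of 9 neutrophil markers 1 was lower. Replicate 1 of the nephritic Cre controls, highest in Fut7, had the highest plasma cell mean of its group (1.45). Its B cell and myeloid means were the lowest of the group (-2.43 and -3.28). The part of these cells in the Fut7 difference was not tested. Gcnt1 was not called in Cre control, but its nephritic arrays also lay above the non-nephritic ones, across the same slides. They read -0.54, -0.0017 and -0.18 against -1.95, -2.02 and -2.28 on the probe used. On the other Gcnt1 probe they read -3.46, -3.35 and -3.47 against -5.23, -4.86 and -5.10. Nephritic and non-nephritic IKK2 knockout arrays differed in Fut7 by -0.47 (SE 0.19, adjusted p = 0.274) and in the NEMO knockout by 0.034 (SE 0.24, adjusted p = 1.0).

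Whether nephritis acted differently by genotype was tested as a contrast. Of the members, Fut7 had a lower response in the IKK2 knockout than in Cre control, by -1.55 (SE 0.27, adjusted p = 0.0381), the only call among 34, against 1.13% of all genes in either direction, 0.831% of all genes lower and 0.3% higher. That call was lost in 8 of the 12 fits that left out an array, with values of -1.48 to -1.65, and with slide as a block (-1.5, adjusted p = 0.0993). Gcnt1 had -3.27 (SE 0.97, adjusted p = 0.104) and Itgb1 -1.11 (SE 0.26, adjusted p = 0.0660) in the same contrast, and neither passed. Between the NEMO knockout and Cre control no member's response was called by limma, against 0.266% of all genes in either direction, 0.0136% of all genes higher and 0.252% lower. Limma's unadjusted p was under 0.05 for 4 members in this contrast and for 15 in that of the IKK2 knockout. Of all 14674 genes it was under 0.05 for 1485 and 2929 in the same order. Itgb3 was lower in nephritic than in non-nephritic IKK2 knockout arrays by -0.74 (SE 0.14, adjusted p = 0.0491). Within slide 1 this was -0.76 (adjusted p = 0.278), and the call was lost in 4 of the 6 fits that left out an array, among them the fit without replicate 2 of the non-nephritic knockout, at -0.56 (adjusted p = 0.0760).

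Genes that work with the members were counted from 4 lists, to be read against the share of all genes called, 48.4% in the NEMO knockout with nephritis and 43.0% without, and 2.58% and 14.6% in the IKK2 knockout. Of 41 genes of integrin activation and linkage, 7 were higher and 14 lower in the NEMO knockout with nephritis, 8 higher and 8 lower without, and in the IKK2 knockout 1 was lower with nephritis and 5 were higher without. The NEMO knockout calls, 21 and 16 of 41, were near the share of all genes. The actin cross-linker Actn1 was lower in the NEMO knockout by -2.31 (SE 0.19, adjusted p = 3.00e-06) with nephritis and -1.83 (SE 0.19, adjusted p = 1.78e-05) without. The adhesion kinase Ptk2 was lower too, by -1.76 (SE 0.28, adjusted p = 0.000311) and -1.96 (SE 0.28, adjusted p = 0.000158). The talin partner Vcl was higher, by 1.93 (SE 0.27, adjusted p = 0.000149) and 2.27 (SE 0.27, adjusted p = 4.91e-05). Rap1a, a small GTPase that switches integrins on, was higher by 1.14 (SE 0.26, adjusted p = 0.00371) with nephritis. Rap1gap, which shuts Rap1 off, was lower in the nephritic IKK2 knockout by -1.28 (SE 0.27, adjusted p = 0.0305) and higher in the non-nephritic NEMO knockout by 1.24 (SE 0.30, adjusted p = 0.00564).

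Of 20 genes of selectins, selectin ligand enzymes and homing, 10 were higher and 4 lower in the NEMO knockout with nephritis and 9 higher and 5 lower without. In the IKK2 knockout none was called with nephritis, and 1 was higher and 2 lower without. Ccr7, the lymph node homing receptor, was lower in the NEMO knockout by -3.11 (SE 0.15, adjusted p = 1.40e-07) and -2.20 (SE 0.15, adjusted p = 1.06e-06). Ccr6, a chemokine receptor of Th17 cells, memory T cells and B cells, was higher by 4.26 (SE 0.54, adjusted p = 6.93e-05) and 4.20 (SE 0.54, adjusted p = 8.33e-05). Of 31 other adhesion and costimulation receptors 11 were higher and 6 lower in the NEMO knockout with nephritis and 12 higher and 7 lower without, and in the IKK2 knockout none with nephritis and 2 higher without. In the NEMO knockout these were 17 and 19 of 31, against the 48.4% and 43.0% of all genes. Tigit, an inhibitory receptor that shares ligands with CD226, was higher in the NEMO knockout by 2.67 (SE 0.51, adjusted p = 0.00122) and 2.80 (SE 0.51, adjusted p = 0.000975). Of 16 genes of matrix ligands 5 were higher and 1 lower in the NEMO knockout with nephritis and 6 higher and 3 lower without. None was called in the nephritic IKK2 knockout and 4 were higher without nephritis. The galectin Lgals3 was higher in the NEMO knockout by 3.49 (SE 0.29, adjusted p = 3.16e-06) and 4.49 (SE 0.29, adjusted p = 8.69e-07), and the metalloprotease Adam8 by 3.61 (SE 0.41, adjusted p = 3.00e-05) and 4.63 (SE 0.41, adjusted p = 5.56e-06). Both were also higher in the non-nephritic IKK2 knockout, Lgals3 by 1.45 (SE 0.26, adjusted p = 0.00464) and Adam8 by 1.65 (SE 0.37, adjusted p = 0.0126). In Cre control Lgals3 was higher with nephritis than without, by 1.16 (SE 0.26, adjusted p = 0.0339). The part of myeloid and other cells in these differences was not tested. The median differences of the 4 lists in the NEMO knockout with nephritis were -0.073, 0.40, 0.22 and 0.54 in that order, and that of all genes was -0.14.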

How the data were processed

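The authors deposited the scanner output of 16 1-colour Agilent arrays as spot intensity. Per the file headers, the processed intensity was made by Agilent Feature Extraction 10.7.3.1, whereas the submitters' processing notes name version 10.5. The authors also deposited a table of log2 values. Neither labels nor headers state its method, and it served as an alternative. Per the labels, each array took 0.1 µg RNA (integrity number 8 or more) from 1 of 2 extraction kits.

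Of 62976 spots, 59305 were not controls. Control spots and 103 to 246 outlier spots per array were left out, no spot was saturated, and 48.9% to 59.8% of spots were well above background. Spots of 1 probe were averaged. Each array's 75th percentile (265 to 476 units of intensity) was subtracted on the log2 scale. Of 55681 probes, 27235 had 1 gene symbol from the files and a RefSeq table of GRCm38.p6, and 28446 had none. The file headers name mm9, so the only coordinates given are those of the RefSeq promoters. Genes entered the test if a probe was well above background on at least 2 arrays.

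The 6 group means were fitted to all arrays with limma 3.58.1 in R 4.3.3, with Benjamini-Hochberg adjustment over 14674 genes in each of 11 comparisons. P-values are two-sided and intervals are 95%. Tables and plots used Python 3.11.15, numpy 2.4.6, pandas 2.3.3 and matplotlib 3.10.9. The fit was checked on simulated data. A gene that no array of a group measured well above background is given with its fitted difference and no fold. Normexp correction used the median spot signal because the files hold no mean signal. A member called against Cre control or in a nephritis comparison is given array by array, and of the partner lists at most the 4 largest calls in each comparison of a knockout are named. A further partner gene that this rule would name is not reported here. The members and lists were chosen with earlier results of these data known. Precision is limited by the number of arrays, which was 2 or 3 in a group.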

Additional observations from a re-analysis of the deposited data

Results flagged for a closer look

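In 5 cases both knockouts were called against Cre control in opposite directions, and limma's direct test of the difference between the knockouts passed too. NEMO knockout minus IKK2 knockout was 6.17 for Gcnt1, 3.34 for Fut7 and 2.76 for Itgb1 with nephritis, and 1.53 for Cd226 and -2.53 for Itga5 without. The NEMO arrays lay on a slide of their own, so slide and genotype cannot be told apart in these values. The Gcnt1 difference rests on a probe that was well above background on 1 of 3 nephritic IKK2 knockout arrays. The other Gcnt1 probe gave 2.59, and on it the nephritic IKK2 knockout arrays overlapped Cre control, at a difference of 0.19. Itga5 was not well above background on either non-nephritic NEMO knockout array. The calls of the non-nephritic IKK2 knockout against Cre control were kept in 8 of 19 alternative fits for Cd226 and 10 of 19 for Itga5.

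The response of Fut7 to nephritis differed between IKK2 knockout and Cre control by -1.55 on the log2 scale. All 3 nephritic IKK2 knockout arrays lay below the non-nephritic ones, and all 3 nephritic Cre control arrays lay above theirs. The nephritic and non-nephritic Cre control arrays lay on different slides. The part of other cells in this difference was not tested. This call was kept in 9 of 24 alternative fits. It was lost in 8 of the 12 fits that left out an array and with slide as a block.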

How the results depend on the processing

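No call of a member reversed in any alternative. Most of the 108 calls over the 11 comparisons were kept by other scalings: 105 with quantile normalization, 108 with the percentile taken over probes detected on every array, 99 with normexp and 97 in the authors' deposited table. Counts of members called moved as follows. With arrays of 1 slide only, 0 were called for the nephritic IKK2 knockout against Cre control, 0 for the non-nephritic one and 0 for nephritis in the IKK2 knockout. With slide as a block the non-nephritic IKK2 knockout had 3, and nephritis in Cre control, nephritis in the IKK2 knockout and the response of the IKK2 knockout against Cre control had 0 each. The random slide block also gave 0 for those 3. With only the arrays compared, the non-nephritic IKK2 knockout had 6 and those 3 had 0. Nephritis in Cre control had 2 with the mean of all probes. Nephritis in the IKK2 knockout had 0 with that mean, with normexp, with the authors' table and without a filter on dim probes, and the response had 0 with normexp and without the filter. Nephritic Cre control replicate 2 and non-nephritic Cre control replicate 1 had been set apart in an earlier analysis of these data. Without both, nephritis in Cre control, nephritis in the IKK2 knockout and the response had 0, and 97 of the 108 calls were kept. Leaving out each array in turn gave 2 to 5 for the nephritic IKK2 knockout against Cre control (2 without nephritic IKK2 knockout replicate 2), 6 to 10 for the non-nephritic (6 without non-nephritic Cre control replicate 3), 17 to 24 and 19 to 23 for the NEMO knockout, 0 to 3 and 0 to 1 for nephritis in Cre control and the IKK2 knockout and 0 to 3 for the response (3 without nephritic Cre control replicate 1), and 19 to 22 and 12 to 18 for the NEMO against the IKK2 knockout. Nephritis in Cre control had 0 without non-nephritic Cre control replicate 1. Fewer arrays leave fewer degrees of freedom in these fits; otherwise the cause was not tested. No slide block could be fitted for the NEMO knockout against the others.

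Same-numbered arrays of different groups did not deviate together, with correlations of -0.20 to 0.13 over 22 pairs, 2 of them over 0.1, so the numbers were not taken as pairs. With the replicate block, 0 members were called for nephritis in the IKK2 knockout and 0 for the response, and 25 and 23 for the NEMO knockout against Cre control. Among all genes, the share of calls that were higher moved by over 10 points with the percentile over detected probes: 51.4% against 38.4% for the nephritic IKK2 knockout, 47.5% against 63.7% for nephritis in Cre control and 43.0% against 26.5% for the response. For nephritis in Cre control it was 49.7% with normexp and 43.5% in the authors' table. For nephritis against none within the NEMO knockout it was 0 of 11 calls in that table and 14.8% in the 6-group model. Probes near background limit Gcnt1, Itga5, Selp and Itga2.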
